A study of Mus musculus with 3 samples.

Results

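A stretch of mouse chromosome 18 that starts inside Csnk1g3 and holds the whole of Zfp608 was examined by array comparative genomic hybridisation in neurosphere lines grown from gliomas resistant to inhibition of CSF1R. It runs from 54073534 to 56201843 (2.13 Mb, build mm9). Its members were the 370 probes placed on chromosome 18 between 52 and 58 Mb, of 170293 probes measured on all arrays. Of these, 84 lie in the stretch, 149 in the left flank and 137 in the right flank. The stretch and both genes were chosen by their measured log ratios, so its levels and those of its genes are a description with no test.

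The study set the DNA of 3 neurosphere lines (Cy5) against mouse liver DNA (Cy3), with 1 array a line. The lines are free-floating cultures from tumours resistant to CSF-1R inhibitor, taken at passage 2 to 3. Line 1 has an animal number of its own, while lines 2 and 3 share an animal number and a liver label, so they may come from 1 mouse. The strain, genotype and age of the animals and the inhibitor used are not given in the sources used here. All arrays are of 1 slide, and the dyes were not swapped, so any difference between the dyes is part of every ratio. The arrays measure DNA, in which no marker of a cell type can be read, so the identity of the cultured cells was not checked.

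In comparative genomic hybridisation, each probe gives the ratio of test DNA to normal DNA at its place in the genome. A gain of 1 copy over 2 in every cell would have a log2 ratio of 0.58 on an ideal array, a loss of 1 copy would have -1, and a change in only part of the cells lies nearer to 0. Csnk1g3 encodes a gamma isoform of casein kinase 1, a membrane-anchored kinase family that phosphorylates the Wnt co-receptor Lrp6, as shown in frog embryos and human cells. Zfp608 encodes a zinc finger protein, a repressor of Rag1 and Rag2 in mouse thymocytes, and its paralogue Zfp609 acts with the cohesin loader Nipbl in mouse neural progenitors.

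The array names few genes in the stretch. Of its 84 probes, 31 (36.9%) carry a gene name, against 199 of 286 (69.6%) in the flanks and 67.4% on the autosomes. Probes are also sparser, with a median distance of 24583 bp in the stretch, against 10788.5 bp in the left flank, 10076.5 bp in the right flank and 10843.5 bp on the autosomes. Base composition hardly differs, since the mean GC content of the probes was 36.7% in the stretch and 36.8% in the flanks. In the RefSeq gene order of a later build (GRCm38.p6), Zfp608 is the only protein-coding gene of the 31 genes between Csnk1g3 and Gramd3. The other entries are 18 long non-coding RNAs, 10 pseudogenes and 2 small nucleolar RNAs. The interval is thus poor in protein-coding genes.

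The log2 ratio of the stretch lay above that of its flanks in each line, most in line 3. Lines 1, 2 and 3 had mean ratios of 0.15, 0.12 and 0.29 over the 84 stretch probes, against -0.0018, 0.026 and 0.063 over the 286 flank probes. The stretch minus its flanks was thus 0.15 (standard error over probes 0.043) for line 1, 0.096 (0.026) for line 2 and 0.23 (0.029) for line 3, or 0.16 ± 0.067 over the lines (SD, n = 3). Neighbouring probes share DNA and are no replicates, so these standard errors describe the scatter of probes within an array. The right flank was the nearer one in level: the stretch exceeded it by 0.097, 0.062 and 0.22 in lines 1, 2 and 3, and exceeded the left flank by 0.20, 0.13 and 0.24.

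**Figure D1:**
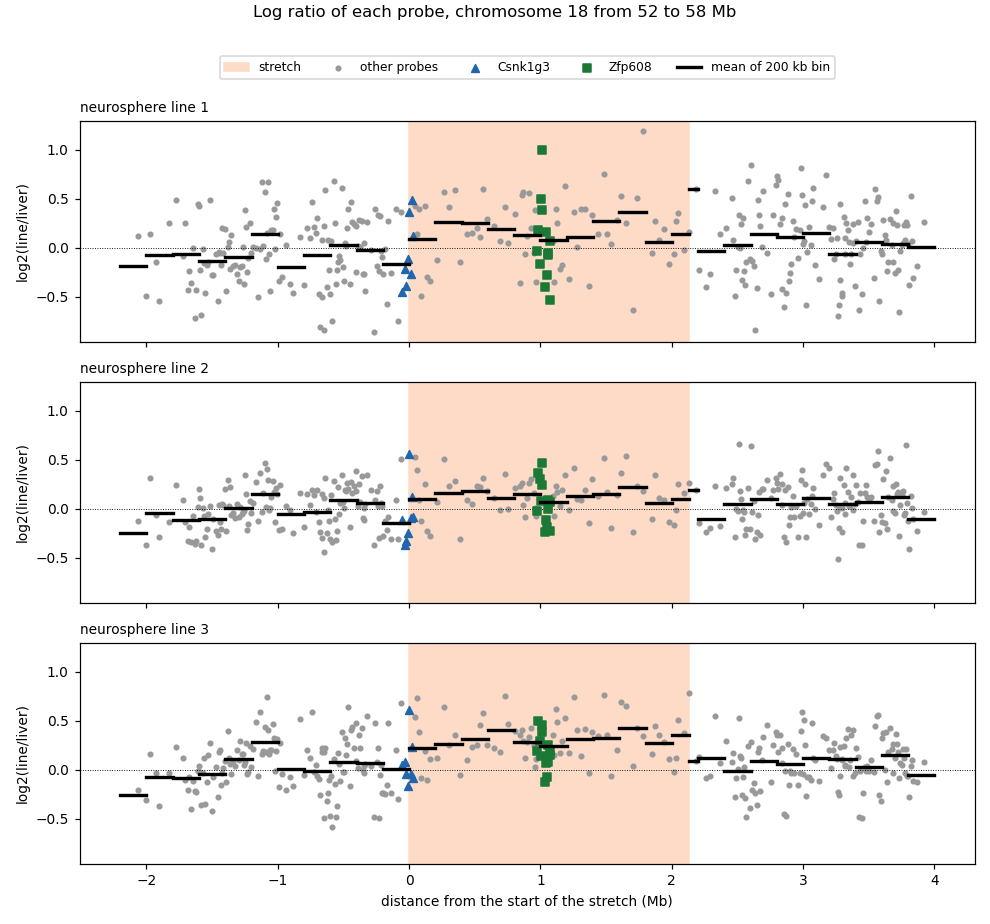
Log2 ratio of line over liver DNA for each of the 370 probes (points) in the 3 lines (panels), against the distance from the start of the stretch in Mb. The shaded band is the stretch, black bars are means of 200 kb bins, triangles are Csnk1g3 probes and squares are Zfp608 probes. All 11 bins of the stretch lie above 0 in each line, and single probes scatter widely around them.

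Single probes overlapped widely between stretch and flanks. In line 3 the stretch probes ranged from -0.13 to 0.78 with a median of 0.29, and the flank probes from -0.58 to 0.74 with a median of 0.057. In line 1 the stretch probes ranged from -0.63 to 1.19 with a median of 0.15, against -0.86 to 0.84 with a median of 0.0041 in the flanks. In line 2 the range was -0.31 to 0.56 with a median of 0.12 in the stretch, and -0.51 to 0.66 with a median of 0.026 in the flanks. The shift is therefore one of the middle of the distribution, not of a few extreme probes. A ratio of at least 0.2 was reached by 37 of 84 stretch probes in line 1, 31 in line 2 and 52 in line 3. Of autosomal probes, 30.6%, 21.7% and 22.4% reached it in lines 1, 2 and 3. In all 3 lines together, 51 of the 84 (60.7%) were above 0, against 33.4% of autosomal probes. Those counts come from the values that chose the stretch and are given as a description.

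The elevation was spread over the length of the stretch. In bins of 200 kb, all 11 bins of the stretch had a mean above 0 in each line, from 0.061 to 0.37 in line 1, 0.061 to 0.22 in line 2 and 0.23 to 0.43 in line 3. Of 21 flank bins, 10, 12 and 14 were above 0 in lines 1, 2 and 3. Line 3 was the highest of the lines in 11 of 11 bins of the stretch, against 10 of 21 in the flanks. The probes are scattered over the slide, from row 2 to 1036 and column 4 to 169. All 84 were well above background in both channels of every array.

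The ends of the stretch match a segment of line 3. The stretch was chosen from these same log ratios, so this match is a description and lends the ends no support. Penalised least squares segmentation of chromosome 18 at a penalty of 5 cut line 3 at exactly 54073534 and 56201843 (84 probes, mean 0.29). At a penalty of 2, which allows more breaks, the segment of line 3 began 4 probes later, at 54118477, with the same end (80 probes, mean 0.30). At a penalty of 10, line 3 had no segment there. Lines 1 and 2 and the mean of the 3 lines had no matching segment at any of these penalties. A match had to cover at least 50% of the stretch and lie at least 50% within it. The cost of a break grows with the noise variance of the values cut. Over the autosomes, the scatter between neighbouring probes (SD) was 0.39, 0.24 and 0.24 in lines 1, 2 and 3. The steps of lines 1 and 2 were also smaller, so a missing segment does not show that they lack the elevation. At a penalty of 2, the mean of the 3 lines had a wider segment across the region, from 52623760 to 59033476 (413 probes, mean 0.077).

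Both end probes of the stretch were high in line 3. The first probe inside, from 54073534 to 54073593 in Csnk1g3, had 0.36, 0.56 and 0.61 in lines 1, 2 and 3. The last probe outside on the left, also in Csnk1g3, had -0.11, -0.24 and -0.17. The last probe inside had 0.16, 0.26 and 0.78, against 0.60, 0.19 and 0.089 for the first probe outside on the right. Going outward across the right end, this pair of probes thus falls in lines 2 and 3 and rises in line 1. The stretch was chosen from these log ratios and its ends match a segment of line 3, so the fall of line 3 there is part of the choice. Neighbouring autosomal probes scatter with an SD of 0.39, 0.24 and 0.24 in lines 1, 2 and 3. A step in line 1 or 2, or its absence, therefore cannot be read from 1 pair of probes. Without the end probes of the stretch, stretch minus flanks was 0.22 in line 3, against 0.23 with them.

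Csnk1g3, the kinase gene, is crossed by the left end. Its 8 probes lie between 54022845 and 54103546 and averaged -0.059, -0.069 and 0.080 in lines 1, 2 and 3. The 4 inside the stretch averaged 0.18, 0.13 and 0.18 in the same order, against -0.29, -0.26 and -0.020 for the 4 outside. The inside probes were uneven: they had in turn 0.61, -0.039, 0.23 and -0.083 in line 3, so only 2 of 4 were above 0 there. As a whole, the gene was at about the autosomal median, with a mean of -0.016 ± 0.083 over the lines (SD, n = 3), and its sign differs between lines and with the processing.

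Zfp608, the zinc finger gene, lies wholly inside, with 13 probes from 55049316 to 55149615. Lines 1, 2 and 3 had means of 0.057, 0.064 and 0.19, or 0.10 ± 0.077 (SD, n = 3). That mean was 0.060 without line 3 and 0.070 with normexp background correction. In line 3, 11 of 13 probes were above 0, against 8 in line 2 and 6 in line 1. The highest was at 55088026, with 1.00, 0.47 and 0.46 in lines 1, 2 and 3, and the lowest over the lines was at 55106519, with -0.40, -0.24 and -0.13. Of the 13 probes, 7 had the same sign in all 3 lines. Over the 84 stretch probes the log ratios of line 3 correlated with those of line 2 at a Pearson r of 0.86 and with those of line 1 at 0.58, and line 1 with line 2 at 0.69. Over the autosomes the same pairs had 0.82, 0.64 and 0.70. All arrays share their probes, and lines 2 and 3 also share a liver label.

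Most probes of the stretch lie outside both genes. The 33 probes between Csnk1g3 and Zfp608 averaged 0.17, 0.13 and 0.29 in lines 1, 2 and 3. The 34 probes beyond Zfp608 averaged 0.16, 0.14 and 0.34. Both means lie above that of Zfp608 in every line, while the 4 Csnk1g3 probes inside the stretch were slightly higher in line 1 (0.175, against 0.172 and 0.164). In the stretch, the 53 unnamed probes averaged 0.17, 0.14 and 0.32, against 0.12, 0.099 and 0.24 for the 31 named probes. On the autosomes the same split gave smaller differences: unnamed probes averaged -0.0083, 0.0067 and 0.026, against 0.0044, 0.0090 and -0.0011 for named ones.

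The other names wholly inside the stretch are transcripts without an assigned protein, and few have several probes. AK139062, with 4 probes, averaged 0.29, 0.080 and 0.28 in lines 1, 2 and 3. ENSMUST00000137879, with 5 probes just beyond Zfp608, averaged 0.030, 0.099 and 0.36. Of the 7 names wholly inside, 6 were above 0 in each line, and line 3 was highest for 5 of them. The exception was the single probe of ENSMUST00000123269, at -0.18 in line 1, 0.19 in line 2 and 0.30 in line 3.

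**Figure D2:**
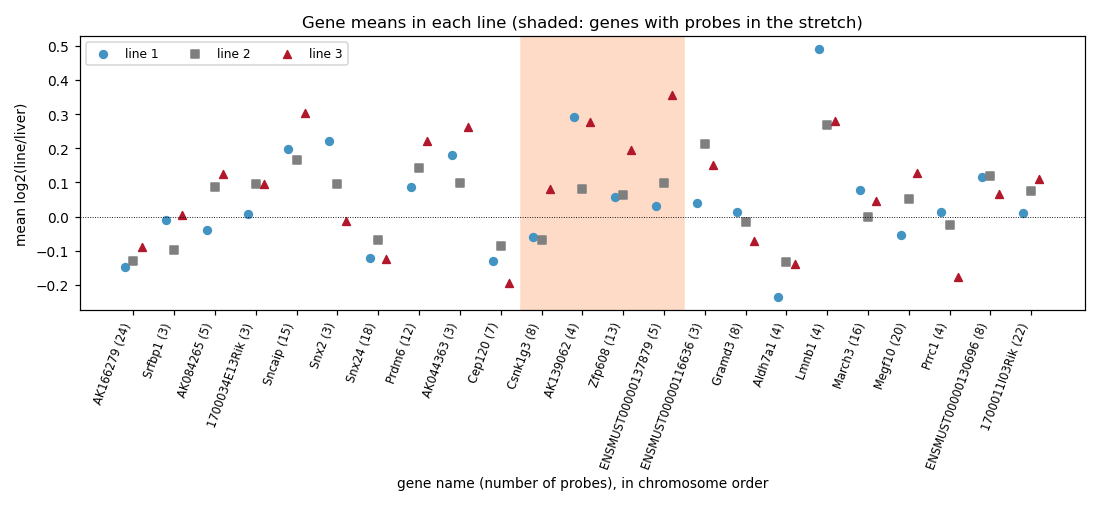
Mean log2 ratio of line over liver DNA for each gene name with at least 3 probes between 52 and 58 Mb, in chromosome order, with the number of probes beside the name. Circles are line 1, squares line 2 and triangles line 3, and the shaded names have probes in the stretch. Line 3 is the highest line for Csnk1g3 and Zfp608, and Lmnb1 outside the stretch reaches 0.49 in line 1.

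Genes of the flanks moved both ways, and some were as high as the stretch. Of 19 flank names with at least 3 probes, 8 had a mean above 0 in each line, 4 had one below 0 in each line and 7 were mixed. Lmnb1, the lamin B1 gene, whose duplication in humans causes a leukodystrophy, averaged 0.49, 0.27 and 0.28 over 4 probes. Sncaip, the gene of synphilin-1, which binds alpha-synuclein, averaged 0.20, 0.17 and 0.30 over 15 probes. Prdm6, a transcriptional repressor of smooth muscle that can be activated beside a duplicated SNCAIP in human medulloblastoma, averaged 0.087, 0.14 and 0.22 over 12 probes. Both Sncaip and Prdm6 lie in the left flank, so a level near that of the stretch was not limited to it.

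Other flank genes stood below 0 in each line. Aldh7a1, an enzyme of lysine breakdown, averaged -0.24, -0.13 and -0.14 over 4 probes. Cep120, a protein of the centriole and the nearest named neighbour of Csnk1g3 on the left, averaged -0.13, -0.086 and -0.20 over 7 probes. Snx24, a sorting nexin, averaged -0.12, -0.067 and -0.13 over 18 probes, and the transcript AK166279 averaged -0.15, -0.13 and -0.089 over 24. Snx24 and AK166279 are covered by more probes than Zfp608, which has 13, but by fewer than the 84 of the whole stretch.

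The remaining names in the flanks lay nearer to 0 or differed between lines. Gramd3, the first protein-coding gene to the right, averaged 0.014, -0.016 and -0.071 over 8 probes. March3, a ubiquitin ligase gene now named Marchf3, averaged 0.078, -0.0014 and 0.046 over 16. Megf10, an engulfment receptor of astrocytes, averaged -0.055, 0.051 and 0.13 over 20. Snx2, a retromer-associated sorting nexin, averaged 0.22, 0.097 and -0.013 over 3 probes, the reverse order of lines to that of Megf10. Prrc1 averaged 0.012, -0.024 and -0.18 over 4 and Srfbp1 -0.012, -0.099 and 0.0043 over 3.

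Transcripts made up the rest of the names with several probes. AK044363 averaged 0.18, 0.098 and 0.26 over 3 probes. AK084265 averaged -0.040, 0.087 and 0.12 over 5, and 1700034E13Rik averaged 0.0069, 0.096 and 0.096 over 3. On the right, ENSMUST00000116636 averaged 0.038, 0.21 and 0.15 over 3 probes, ENSMUST00000130696 averaged 0.12, 0.12 and 0.065 over 8, and 1700011I03Rik averaged 0.0097, 0.074 and 0.11 over 22. The 13 names with fewer probes, Lox, Phax and Ctxn3 among them, ranged from -0.59 to 0.47 in line 1, -0.29 to 0.46 in line 2 and -0.27 to 0.55 in line 3. With 1 or 2 probes a name, such values show mainly the scatter of single probes.

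The channels were read one by one to see whether the ratio moved with the line DNA or the liver DNA. In Cy5 (line DNA), stretch minus flanks was 0.078, 0.039 and 0.20 in lines 1, 2 and 3, and in Cy3 (liver DNA) it was -0.075, -0.058 and -0.034. Within a channel, probes differ far more from each other than in the ratio: the SD over the stretch probes was 0.83 in Cy5 of line 3, against 0.23 for its ratio. With medians over probes the Cy5 difference was -0.10, -0.092 and -0.047 in lines 1, 2 and 3, so the sign of a single channel depends on the summary. The split of the ratio between channels is therefore not fixed by these levels.

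**Figure D3:**
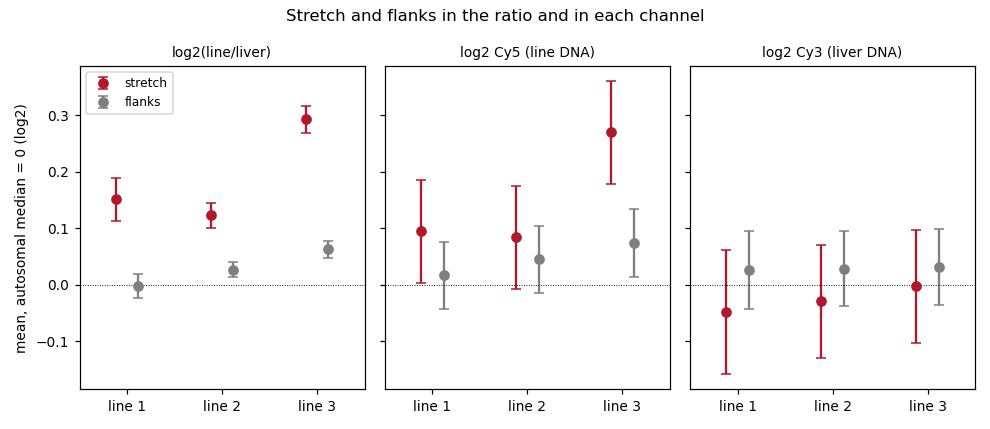
Mean log2 value of the stretch (left point of each pair) and its flanks (right point) in each line, for the ratio, the Cy5 channel (line DNA) and the Cy3 channel (liver DNA), each with its autosomal median at 0. Bars are 1 standard error over probes. The ratio separates stretch and flanks, while the bars of the single channels overlap except in Cy5 of line 3.

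Comparing the same probe between arrays removes most of its own brightness, and there the elevation of line 3 over line 2 lay in the line DNA. The mean Cy5 level of the stretch was 0.27 in line 3 and 0.084 in line 2. Probe by probe, line 3 minus line 2 in Cy5 averaged 0.19 in the stretch and 0.030 in the flanks, a difference of 0.16 (standard error over probes 0.020). In Cy3, where both arrays carry liver DNA of 1 label, it averaged 0.015 in the stretch and -0.0087 in the flanks. Cy5 was higher in line 3 for 74 of the 84 stretch probes and 165 of 286 flank probes (57.7%). Of autosomal probes 50% were higher, the share that centring sets. In the ratio, 80 of 84 stretch probes and 173 of 286 flank probes (60.5%) were higher in line 3, against 49.8% of autosomal probes. The stretch was chosen from these log ratios and its ends match a segment of line 3, so these counts are a description too.

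Line 3 also stood above line 1, and lines 1 and 2 were close to each other. Line 3 minus line 1 in Cy5 averaged 0.18 in the stretch and 0.059 in the flanks, and in Cy3 0.048 in the stretch and 0.0063 in the flanks. Line 1 minus line 2 in Cy5 averaged 0.0098 in the stretch and -0.029 in the flanks. Line 1 minus the mean of lines 2 and 3, the comparison of the animal numbers, gave -0.084 in the stretch and -0.044 in the flanks in Cy5, a difference of -0.040 (standard error over probes 0.018). That value rests on line 3: with line 2 alone on the other side it was 0.039, and with line 3 alone -0.12.

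**Figure D4:**
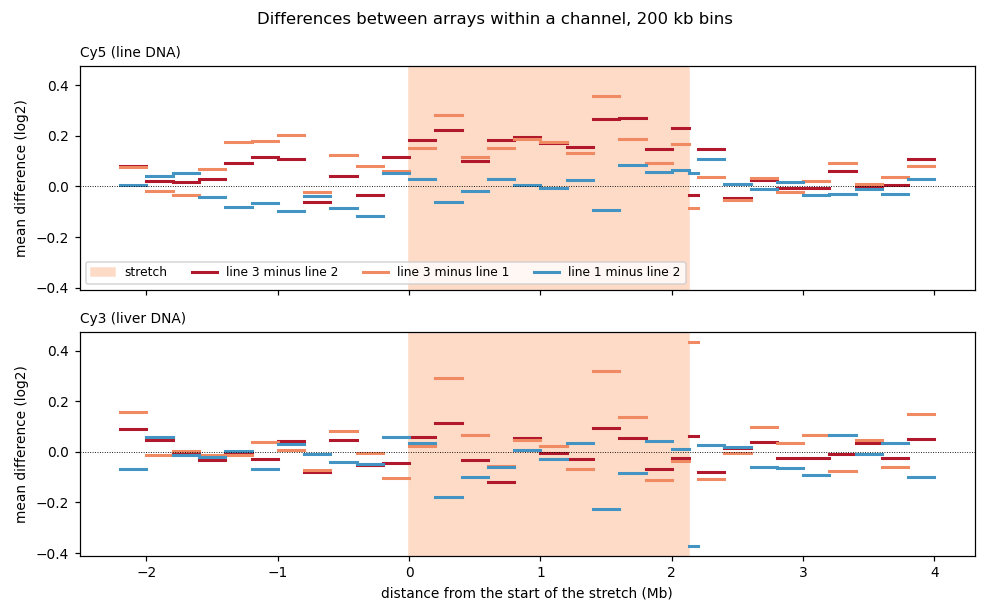
Mean log2 difference between arrays in 200 kb bins, against the distance from the start of the stretch in Mb, for Cy5 (line DNA, top) and Cy3 (liver DNA, bottom). Colours mark the pairs of lines and the shaded band is the stretch. Line 3 minus line 2 in Cy5 lies between 0.099 and 0.27 in the 11 bins of the stretch and between -0.061 and 0.15 in the flanks.

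The step between arrays was wider than the stretch itself. Segmentation of Cy5 of line 3 minus line 2 gave a segment from 53902617 to 56531625 (102 probes, mean 0.18) at penalties of 5 and 2. It takes in all Csnk1g3 probes, and the 4 that lie outside the stretch averaged 0.15 in this difference, against 0.11 for the 4 inside. Zfp608 averaged 0.16, with 11 of 13 probes above 0. The 33 probes between the genes averaged 0.19 and the 34 beyond Zfp608 0.21. Cy5 of line 3 minus line 1 gave a segment from 52545146 to 56201843 (210 probes, mean 0.14), which shares only its right end with the stretch. At a penalty of 10 neither difference had such a segment, and in Cy3 no pair of arrays had one at any penalty.

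The level of the stretch was set against that of the autosomes. They were divided, chromosome 18 included, into 1913 blocks of 84 consecutive probes. Means of at least 0.1 were reached by 7.11% of blocks in line 1, 9.72% in line 2 and 8% in line 3, and in all 3 lines at once by 25 blocks (1.31%). The level of the stretch itself was reached by 14 blocks in line 1, 97 in line 2 and 0 in line 3, where the highest block had 0.25, against 0.29 in the stretch. For Cy5 of line 3 minus line 2, 3.97% of blocks reached 0.1 and 0 reached the 0.19 of the stretch, the highest being 0.18. For Cy3 of the same pair, 0% of blocks reached 0.1. The stretch was picked for its level and fitted to its own ends, while the blocks were laid at fixed places, so the counts are no test.

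Windows of the same length, at least 100 probes each, gave a like order. Of 936 such windows, 1 reached the level of the stretch in line 1, 31 in line 2 and 0 in line 3. For Cy5 of line 3 minus line 2, 1 of the 936 windows reached it, with 0.20, and 14 reached 0.1. With at least 50 probes a window, 42 of 1126 windows reached 0.1 in this difference, and 1 reached the level of the stretch. The stretch has fewer probes than the 100 required of the 936 windows, so its own mean scatters more than theirs.

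**Figure D5:**
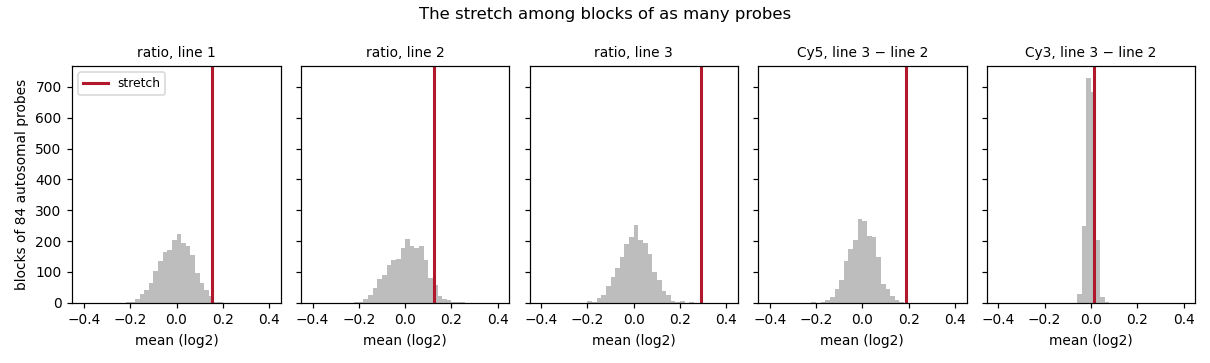
Histograms of the mean log2 value of 1913 autosomal blocks of 84 probes, for the ratio in each line and for line 3 minus line 2 in each channel. The red line is the stretch. It lies beyond all blocks for the ratio of line 3 and for Cy5 of line 3 minus line 2, and within the blocks elsewhere.

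The stretch was also set against gene-poor DNA elsewhere. Among autosomal probes with 30 to 50% named probes within 500 kb, the log2 ratio averaged -0.032, -0.030 and -0.0067 in lines 1, 2 and 3 (12868 probes). The 40 stretch probes in the same range averaged 0.10, 0.10 and 0.28. Autosomal probes with under 30% named neighbours averaged -0.071, -0.095 and -0.039 (11205 probes). Over the autosomes a low share of named probes thus went with lower ratios. In Cy5 of line 3 minus line 2 it went with higher values, on the same side as the stretch: autosomal probes averaged 0.058 below 30%, 0.024 from 30 to 50%, -0.0029 from 50 to 70% and -0.0070 above that. The 40 stretch probes from 30 to 50% averaged 0.18 in this difference. The 29 stretch probes from 50 to 70% also averaged 0.18, against 0.018 for the 135 flank probes in that range. The part of gene density in this difference was not tested. The ratio was also taken as residuals on the share of named probes within 500 kb. Stretch minus flanks was then 0.20, 0.15 and 0.25 in lines 1, 2 and 3. With residuals on probe GC content it was 0.15, 0.098 and 0.23, and on local GC content 0.16, 0.11 and 0.23. Which other properties of the DNA move with the ratio was not tested.

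Relatives and pathway partners at other loci were measured with the same probes, as gene means over the 3 lines tested against 0 with limma and Benjamini-Hochberg adjustment over 9462 genes. Over all genes, 14.2% passed above 0 and 9.95% below 0 (adjusted p under 0.05), so a call is common in these arrays. Of 11 listed genes of the wider casein kinase 1 group, Csnk1g3 included, 8 were tested at other loci. They were Csnk1d, Csnk1e, Csnk1g1, Ttbk1, Ttbk2, Vrk1, Vrk2 and Vrk3. Of these, 2 passed above 0 and none below, and their median was -0.0078, against 0.011 over all genes. Vrk1, a nuclear kinase of the cell cycle, had 0.54, 0.25 and 0.24 in lines 1, 2 and 3 (limma adjusted p = 0.0086). Csnk1d, a kinase of the circadian clock, had 0.43, 0.17 and 0.11 over 3 probes (limma adjusted p = 0.028). Both lost the call with normexp background correction (limma adjusted p = 0.61 for Vrk1 and 0.53 for Csnk1d).

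Neither of the 2 relatives and partners of Zfp608 with enough probes passed. Zfp609 had 0.12, -0.015 and 0.051 in lines 1, 2 and 3, and Nipbl had -0.071, -0.013 and 0.042. Of 19 Wnt signalling genes listed, only 11 could be tested. Among those 11, 1 passed above 0, 1 below and 9 did not, with a median of 0.070. Lef1, a transcription factor that binds beta-catenin, had 0.10, 0.19 and 0.15 (limma adjusted p = 0.034). Wnt7b, a ligand, had -0.23, -0.10 and -0.24 (limma adjusted p = 0.019). Lrp6, the co-receptor that casein kinase 1 gamma phosphorylates, had 0.097, 0.036 and 0.077 and did not pass (limma adjusted p = 0.23). With lines 2 and 3 averaged as 1 animal, Lef1 and Wnt7b no longer passed (limma adjusted p = 0.15 and 0.065), nor did Csnk1d (0.059), while Vrk1 did (0.037). Without line 3, Lef1 (0.13) and Wnt7b (0.097) were lost as well, and Lef1 also without line 2 (0.21).

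Over the alternatives run, the limma adjusted p ranged from 1.77e-05 to 0.614 for Vrk1, 0.0127 to 0.534 for Csnk1d, 0.00278 to 0.214 for Lef1 and 0.00280 to 0.421 for Wnt7b. The call was lost in 2 of 7 alternatives for Vrk1, 3 of 6 for Csnk1d, 6 of 8 for Lef1 and 5 of 7 for Wnt7b. Normexp ended the call of each of these genes.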

How the data were processed

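Genomic DNA of 3 neurosphere lines (Cy5) and of mouse liver (Cy3) was hybridised to 2-colour Agilent arrays. The deposited intensity values are processed signals of Feature Extraction 10.7.3.1, background-subtracted and dye-normalised by the authors per the file headers, with probe positions in build mm9. The authors' value table is on the log10 scale per its match to the scanner files; log10 values were turned into log2, and no header or label says how the table was made. Its columns have medians of 0.00044, -0.0015 and -0.0027 and correlate with the scanner log ratios at r = 0.87, 0.84 and 0.88, with slopes of scanner on table values of 1.003, 1.008 and 0.998, which gives their scale and direction; their centring stays unknown. Columns of no known sample numbered 0.

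The log2 ratio of processed signals was taken for each probe, without control spots and outlier-marked spots, averaged over spots of 1 probe and centred on the autosomal median of each array; each channel was centred likewise. No loess or quantile step was applied. Dim probes were kept: 96.3% to 99.4% were well above background in a channel, with 0 saturated. Precision is limited by having only 3 arrays. Segments came from exact penalised least squares (penalty times log n times noise variance, at least 10 probes). Genes with at least 3 probes were tested with limma 3.58.1 (R 4.3.3). Nothing states that lines 2 and 3 are from separate animals, so p-values measure the spread between these cultures. The segmentation and the gene test were run on simulated independent noise with planted effects. Such data check the code and say nothing of false segments or calls in these arrays.

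The members and lists were chosen with earlier results of these data known. Genes named were Csnk1g3, Zfp608, the names between 52 and 58 Mb, and list genes past the threshold; Zfp609, Nipbl and Lrp6 were added with their values known. Window levels had been set below 0 (-0.05 and -0.1); the level of 0.1, the blocks, the windows of at least 50 probes and the comparisons of line 3 with single lines were chosen after seeing the data. Alternatives were medians, other flanks, normexp (offset 50), loess, the value table, residuals on gene number and GC, and each line left out. The RefSeq table gave gene names and order only.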

Additional observations from a re-analysis of the deposited data

How the results depend on the processing

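All lines form a single group, so no pairing between groups of lines was possible. Each ratio does set a line against liver DNA on the same array. The ratio of the stretch minus its flanks stayed above 0 in each line under the 12 alternatives run per line, from 0.13 to 0.20 in line 1, 0.089 to 0.15 in line 2 and 0.22 to 0.29 in line 3. Averaged over lines it ranged from 0.12 to 0.19 with 1 line left out. Cy5 of line 3 minus line 2 stayed within 0.14 to 0.19 under 6 alternatives. Single channels depended on the summary. In Cy5, medians over probes turned 0.10 over lines into -0.081 (-0.10, -0.092 and -0.047 in lines 1, 2 and 3). Without dim probes it was 0.014 over lines (-0.012 in line 1 and -0.054 in line 2), and with flanks of 1 Mb -0.023 in line 2. All 84 stretch probes were well above background, so leaving out dim probes changed the flanks only. In Cy3, the mean of -0.056 was -0.26 with medians, -0.12 with flanks of 1 Mb, -0.018 against the rest of chromosome 18, -0.15 without dim probes, -0.086 with normexp and -0.018 over unnamed probes. Line 1 minus the mean of lines 2 and 3 in Cy5 ranged from -0.12 to 0.039 with 1 line left out. Csnk1g3 (-0.016) was 0.0084 with normexp, 0.043 in the value table, and -0.064 to 0.011 with 1 line left out. Zfp608 (0.10) was 0.070 with normexp and 0.060 to 0.13 with 1 line left out. The cause of these shifts was not tested. Windows of at least 0.1 in all 3 lines made up 0.11%, against 0.32% with shifted tiling and 0.18% with at least 50 probes. Windows at or below -0.1 in all 3 lines made up 0.43%, against 0.12% in the value table and 1.24% with at least 50 probes. Genes past limma numbered 14.2% above and 9.95% below 0, against 4.69% and 2.96% with lines 2 and 3 averaged as 1 animal; with 1 line left out they ranged from 6.45% to 19.2% above and from 4.36% to 14.3% below. Each line has 1 array, so no value of a single line has a replicate, and the segment of line 3 depends on the penalty.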
